A study of Rattus norvegicus with 6 samples.

Results

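Condensin and cohesin are the ring-shaped protein complexes that shape chromosomes, and 10 of their subunit genes were followed here in rat keratinocytes exposed to heavy ions. The condensin genes were Smc2, Smc4, Ncapd2, Ncapg and Ncaph, and the cohesin genes were Smc1a, Smc3, Rad21, Stag1 and Stag2. Members were the probe sets whose platform annotation named exactly 1 of these symbols, and a gene was read by its probe set with the highest mean over the 6 arrays. Of the 10 genes, 9 had such a probe set (14 probe sets in all), out of 14217 genes so named on the array. Ncapg had none and has no value here. The test left out probe sets with a mean intensity under 18.0, the 40th percentile, and 8 members passed this filter among 10354 genes. Smc4 did not pass it.

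The cells were an immortalized keratinocyte line, the main cell type of the epidermis, first isolated from back skin of newborn male Sprague-Dawley rats. There were 6 samples, with 1 Affymetrix rat expression array for each. The 3 unirradiated samples had no treatment, and the other 3 were given a dose of 3 Gy of 56Fe ions at 1.01 GeV per nucleon. The labels used here do not say how long after irradiation RNA was taken, and all samples come from this 1 line. Nothing in the labels says that replicates of a group came from separate cultures, and p-values therefore reflect a spread between samples that may be only technical.

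All 12 keratinocyte markers looked up were measured and passed the filter, and 5 of them fell, against 0.773% of all tested genes called lower. The count was 3 with quantile or cyclic loess normalization and 1 to 3 when any 1 array was left out. The summed intensity of the 12 was 31542.5 to 36146.5 without and 26335.8 to 28981.5 with irradiation. The 7 fibroblast markers had sums of 430.1 to 505.6 and 355.9 to 388.7, most of it from Col3a1, and 2 passed the filter. The collagen gene Col3a1 went from 413 to 295 (log2 change -0.46, limma adjusted p = 0.0271), a call kept in 1 of the 6 fits that left out 1 array (the one without unirradiated replicate 2; limma adjusted p of 0.0517 to 0.150 in the others). Col1a1 differed the other way, from 17.3 to 36.1 without overlap (log2 change 0.65, limma adjusted p = 0.0826), and passed the filter only through its irradiated values; its second probe set had a change of -0.39. Col1a2 (4.43 and 10.5) and Dcn (4.87 and 10.2) had higher means with irradiation but were under the filter. Melanocyte, endothelial and immune markers had mean intensities of at most 22.6, 14.2 and 10.2, and the lowest were 1.07, 2.87 and 2.07. The part of these shifts in the results below was not tested. Log2 values of 2 arrays correlated at 0.984 to 0.988 within a group and at 0.980 to 0.984 across groups.

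Both complexes are built on a pair of SMC proteins, long coiled-coil ATPases that are joined by a kleisin subunit into a ring able to hold or extrude loops of DNA. Condensin compacts chromosomes as cells enter mitosis, and many of its genes are known as cell-cycle genes with mRNA peaking in G2 and mitosis. Cohesin holds sister chromatids together from S phase to anaphase and also folds interphase chromosomes, so its core genes are expressed through the whole cycle.

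After irradiation, genes of condensin rose, while no gene of cohesin passed the test in either direction. Ncapd2 and Ncaph rose 1.61-fold and 1.68-fold by the ratio of mean intensities. Limma called 2 of the 3 tested condensin genes higher and 0 lower, against 2.00% of all tested genes called higher and 0.773% called lower. It called 0 of the 5 tested cohesin genes in either direction, and 3 of these had an unadjusted p under 0.05, as did 15.7% of all tested genes. The median log2 change was 0.65 over the 3 tested condensin genes and 0.18 over the cohesin genes, next to 0.0022 over all 18632 tested probe sets.

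**Figure D1:**
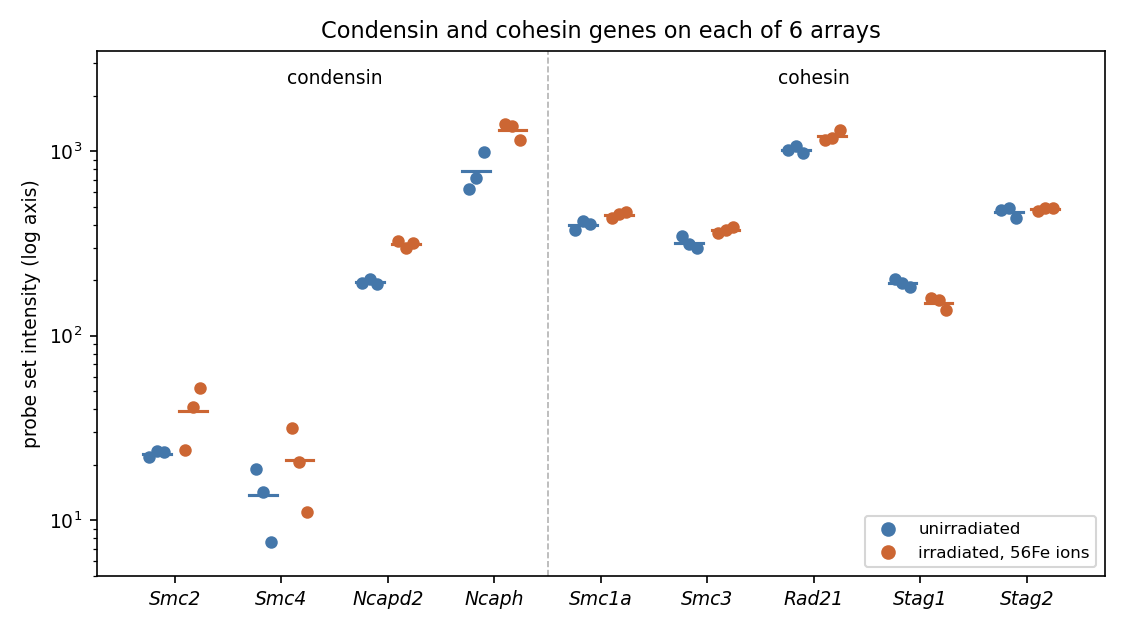
Probe set intensity (log axis) of 4 condensin and 5 cohesin genes on each of 3 unirradiated and 3 irradiated arrays; points are single arrays, short lines are group means. Irradiated values of Ncapd2 (300.3 to 324.6) and Ncaph (1150.9 to 1402.3) lie above all their unirradiated values. So do those of Smc2, Smc1a, Smc3 and Rad21, and Stag1 is the gene whose irradiated values all lie lower.

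Among the subunits that are specific to condensin, Ncapd2 encodes a HEAT-repeat protein that helps the complex bind DNA. Its intensity was 193, 201.9 and 189.7 in the 3 unirradiated arrays and 324.6, 300.3 and 316.5 in the irradiated ones. The 2 groups were far apart, with little spread inside either. The mean went from 195 ± 6.31 to 314 ± 12.4 (SD, n = 3), which gave a log2 change of 0.65 (SE 0.09; adjusted p = 0.0030 by limma). Log2 changes here are on the log2(intensity + 16) scale, which understates the change of dim genes. Ncapd2 kept its call in all 18 other settings tried, including the 6 fits that each left out 1 array, with a limma adjusted p of at most 0.0240.

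Ncaph encodes the kleisin that closes the condensin ring. It was at 625.6, 713.6 and 989 in unirradiated and at 1402.3, 1367.5 and 1150.9 in irradiated arrays. The groups did not overlap, but unirradiated replicate 3 was the highest of its group and irradiated replicate 3 the lowest of its own, so those 2 arrays lay closest together. The mean went from 776 ± 190 to 1307 ± 136 (SD, n = 3), and the log2 change was 0.76 (SE 0.14; adjusted p = 0.0127 by limma). The call ended without unirradiated replicate 1 (log2 change 0.62, limma adjusted p = 0.0561), unirradiated replicate 2 (0.71, 0.0508), irradiated replicate 1 (0.71, 0.0668) or irradiated replicate 2 (0.73, 0.0650). It also ended without the intensity filter (limma adjusted p = 0.0763) and with the variance modelled without an intensity trend (0.108).

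The 2 SMC subunits of condensin, which form the arms of its ring, were read by dim probe sets. Smc2 was at 21.9, 23.6 and 23.3 without and 24, 41.2 and 51.9 with irradiation. Every irradiated value was above every unirradiated one, but irradiated replicate 1 lay next to the unirradiated arrays. Its log2 change was 0.47, with a 95% confidence interval from 0.03 to 0.90, and it did not pass (limma adjusted p = 0.331). Over the 18 other settings its change ran from 0.24 to 0.70, and it passed in none of them (limma adjusted p of at least 0.129).

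Smc4 was dimmer still, at 19, 14.2 and 7.6 without and 31.7, 20.7 and 11.1 with irradiation. The groups overlapped. Its log2 change was 0.31, and its second probe set, at means of 9.60 and 11.3, had a log2 change of 0.11. Fitted without the intensity filter, or where leaving out an array brought it over the filter, it had limma adjusted p-values of 0.394 to 0.840. A signal this close to the bottom of the scale gives no firm value for Smc4.

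Promoters of 5 members, called condensin genes and uncalled cohesin genes, are shown with short motifs known from cell-cycle promoters in capitals. Smc2 and Smc4, condensin genes that were not called, are not among the 5. The sequences are RefSeq's for rat build GRCr8 and give the 150 bases before the annotated start of each gene, 5′ to 3′ on the strand of the gene. Capitals mark TTTGAA (the cell-cycle homology region, CHR, bound by the complexes that switch G2 and mitosis genes), CCAAT (bound by NF-Y) and the E2F core TTNNCGC in which each N is C or G. Each was searched on both strands, and no motif contains another.
Ncapd2: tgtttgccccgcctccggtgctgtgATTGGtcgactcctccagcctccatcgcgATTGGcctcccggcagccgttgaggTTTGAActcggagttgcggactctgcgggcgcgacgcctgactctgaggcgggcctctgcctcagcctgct
Ncaph: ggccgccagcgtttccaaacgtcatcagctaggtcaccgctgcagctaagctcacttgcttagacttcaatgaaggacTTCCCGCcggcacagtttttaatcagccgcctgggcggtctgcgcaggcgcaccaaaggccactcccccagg
Smc1a: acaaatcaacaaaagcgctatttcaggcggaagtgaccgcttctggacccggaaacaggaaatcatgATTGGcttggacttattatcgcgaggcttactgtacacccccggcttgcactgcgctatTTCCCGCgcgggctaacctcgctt
Smc3: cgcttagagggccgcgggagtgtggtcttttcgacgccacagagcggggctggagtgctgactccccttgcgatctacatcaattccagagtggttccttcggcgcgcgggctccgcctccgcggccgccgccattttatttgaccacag
Stag1: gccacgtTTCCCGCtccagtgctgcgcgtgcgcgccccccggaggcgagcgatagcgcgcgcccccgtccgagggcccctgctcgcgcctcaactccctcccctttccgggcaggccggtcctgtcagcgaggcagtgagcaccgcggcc
The stretches lie at chr4:159677939-159678088 on the minus strand (Ncapd2), chr3:134852503-134852652 on the minus strand (Ncaph), chrX:24582582-24582731 on the plus strand (Smc1a), chr1:262606941-262607090 on the plus strand (Smc3) and chr8:110057906-110058055 on the plus strand (Stag1). Ncapd2, which rose, holds a CHR whose first letter is 71 bases before the start, with 2 CCAAT motifs upstream of it at 125 and 96 bases. A further Ncapd2 CCAAT lies past the start, outside the bases shown. Ncaph, which also rose, holds no CHR and no CCAAT in its window but an E2F core at 72 bases and another past the start. Smc1a has a CCAAT at 83 and an E2F core at 24 bases, and Smc3 none of the motifs. Stag1 has an E2F core at 143 bases, a CCAAT further out at 202 bases and another CCAAT past the start.

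Of the 10 members, 9 had a promoter in the table; Rad21 did not. Over the window of 250 bases before to 50 bases after the start, the CHR letters were found in 4 of 5 condensin promoters (Smc2, Smc4, Ncapd2 and Ncapg) and in 0 of 4 cohesin promoters. Of the 4 condensin genes with these letters, Ncapd2 was called, Smc2 did not pass, Smc4 was under the filter and Ncapg had no value. The CHR letters were also found in 4 of 8 promoters of the genes that load or release cohesin. Among these were Pds5a and Pds5b, neither of which passed the test. Of the genes that protect or cleave cohesin, 3 of 4 promoters held the CHR letters, and of other mitotic chromosome genes 4 of 7. Among reference genes the counts were 5 of 8 for G2 and mitosis and 1 of 9 for replication, and for the Smc5-Smc6 complex 1 of 5. The CHR letters were found in 18.3% of all 33469 promoters and in 11.5% of the 9744 promoters of genes tested here. With so few promoters, the contrast between the complexes is a count only. CCAAT was found in 4 of 5 condensin and 3 of 4 cohesin promoters, against 37.5% of all. An E2F core was found in 2 of 5 and 2 of 4, against 9.52% of all and 17.6% of genes tested. These are matches of letters, which do not show binding.

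The core ring of cohesin consists of Smc1a, Smc3 and the kleisin Rad21, which separase cuts at anaphase. Rad21 was at 1010.7, 1066.3 and 979.9 without and 1143.4, 1173.8 and 1296.6 with irradiation. The groups did not overlap, and the shift was small. The ratio of means was 1.18 and the log2 change was 0.24 (95% confidence interval 0.06 to 0.41; limma adjusted p = 0.189).

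Smc3 was at 347.6, 313.2 and 298.1 without and 360.1, 373.3 and 387.6 with irradiation. Its groups did not overlap either, although unirradiated replicate 1 came close to the irradiated arrays. The log2 change was 0.22 (0.02 to 0.42; limma adjusted p = 0.327). A second Smc3 probe set, at mean intensities of 3.10 and 3.17, was too dim to be tested.

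Smc1a was at 373.4, 418 and 405.1 without and 432.9, 455.2 and 468.9 with irradiation. All irradiated values were above the unirradiated ones, with a gap smaller than the spread inside each group. The log2 change was 0.18 (-0.01 to 0.36; limma adjusted p = 0.418). The 3 genes of the core ring thus had changes of 0.18 to 0.24, none of which passed the test.

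Stag1 and Stag2 encode alternative subunits that bind the kleisin, so that a cohesin complex carries 1 of them. Stag1 was at 203.7, 192.2 and 183.6 without and 159.7, 155.2 and 137.7 with irradiation. It was the 1 member whose irradiated values all lay below the unirradiated ones. The mean went from 193 ± 10.1 to 151 ± 11.6 (SD, n = 3), a log2 change of -0.33 (-0.56 to -0.09; limma adjusted p = 0.179), which did not pass. Its second probe set, of similar brightness, was at 179.7, 145.2 and 203.5 without and 172, 99.5 and 210.3 with irradiation. Those groups overlapped widely, with a log2 change of -0.16 (limma adjusted p = 0.800).

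Stag2 was at 480.7, 492.9 and 432.7 without and 475.8, 490.8 and 491.9 with irradiation. The groups overlapped, and the log2 change was 0.05 (-0.13 to 0.24; limma adjusted p = 0.852). A second probe set, at means of 452 and 459, had a change of 0.01, and the other was too dim to be tested. The sign of the small Stag2 change turned without unirradiated replicate 3 (-0.0019).

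Over the tested members, 3 of 3 condensin and 4 of 5 cohesin genes had groups that did not overlap, as did 21.9% of all tested genes. The size of the change was then set side by side, without a test of the difference. The upper 95% bounds of the 5 cohesin genes ran from -0.09 to 0.42, all below the lower bounds of Ncapd2 (0.44) and Ncaph (0.46). The lower bound of Smc2, 0.03, was not above them. Ncapd2 and Ncaph are the condensin genes that were called, and a call favours a high lower bound. The comparison of bounds is therefore a description only.

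The mean over the 4 measured condensin genes, set against its unirradiated mean, was -0.02, 0.01 and 0.01 in the unirradiated and 0.58, 0.58 and 0.48 in the irradiated arrays, on the log2 scale. The mean over the 5 cohesin genes was 0.03, 0.03 and -0.06, then 0.04, 0.08 and 0.09. Condensin minus cohesin was -0.04, -0.03 and 0.07 without and 0.53, 0.50 and 0.39 with irradiation. The mean difference in change between the complexes was 0.47 on this scale. It is a description, with no test, because the members were chosen with results of these data known. Averaged over the 3 condensin genes that passed the filter, a choice made after seeing the data, it was 0.55. The mean of those 3 genes spread more, at -0.11, -0.01 and 0.12 in the unirradiated and 0.53, 0.66 and 0.68 in the irradiated arrays. From unirradiated replicate 1 to 3, Ncaph went from 625.6 to 989 and the dim Smc4 from 19 to 7.6. These opposite shifts offset each other in the mean over 4 genes, so its close unirradiated values do not measure the spread of its genes.

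**Figure D2:**
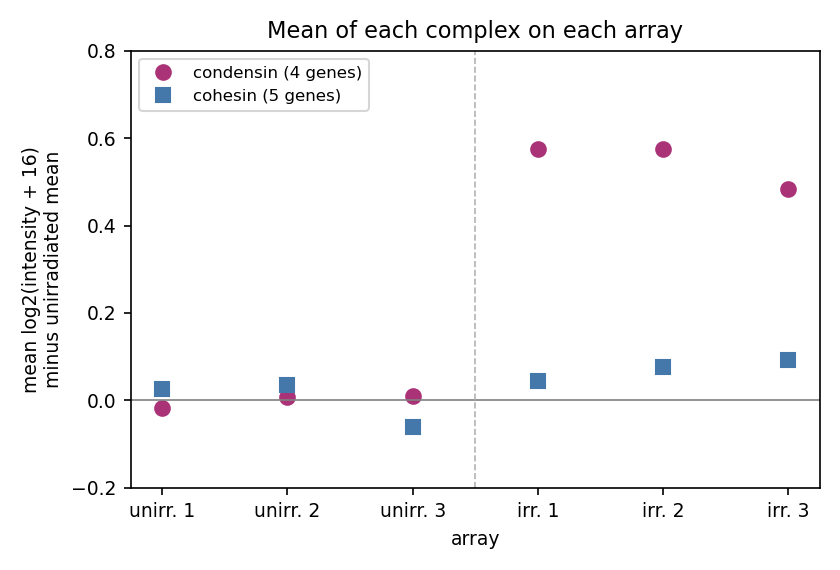
Mean log2(intensity + 16) of 4 condensin genes (circles) and 5 cohesin genes (squares) on each array, minus the unirradiated mean of the same genes. Condensin means lie at 0.48 to 0.58 on the irradiated arrays and cohesin means at 0.04 to 0.09. Smc4, which was under the filter, is among the 4 condensin genes.

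Brightness was set beside these changes because it moved with irradiation in this table. The tenth of tested probe sets with the highest mean had a median log2 change of -0.07, against 0.0022 over all. Ncaph and Rad21, the 2 brightest members, both had changes above 0. Quantile normalization, median centring and cyclic loess normalization left 2 condensin and 0 cohesin genes called. The difference between the complexes was then 0.48, 0.47 and 0.48. The part of the brightness shift in these changes was not tested.

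**Figure D3:**
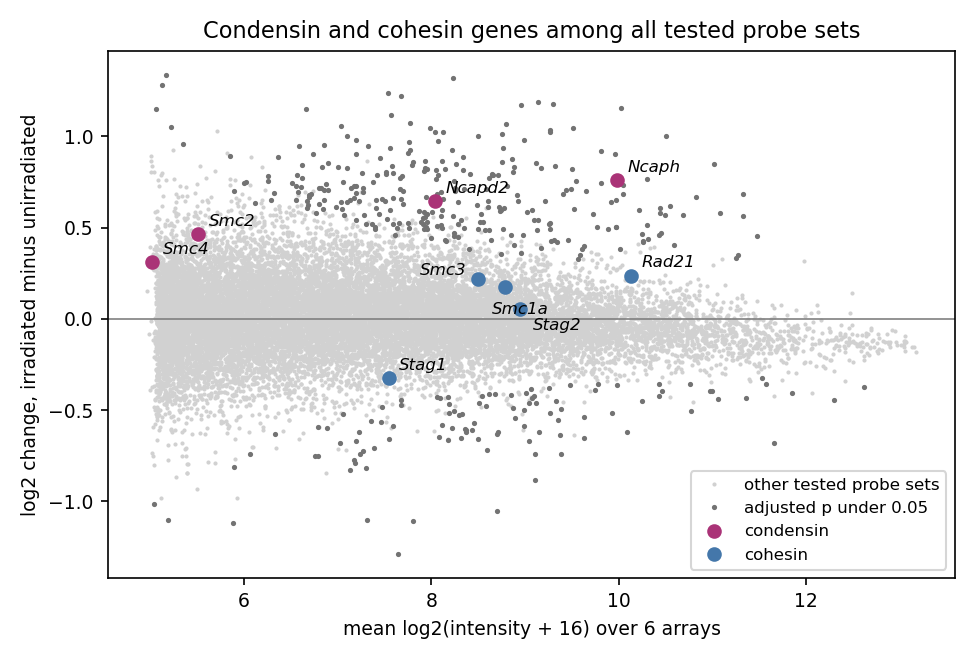
Log2 change (irradiated minus unirradiated) against mean log2(intensity + 16) over 6 arrays for 18632 tested probe sets (grey; dark grey, adjusted p under 0.05), with condensin and cohesin genes marked. Ncapd2 (0.65) and Ncaph (0.76) lie among the called probe sets, the cohesin genes lie between -0.33 and 0.24, and Smc4 is shown although it was under the filter and untested.

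Condensin II is a second form of the complex that uses the same SMC pair with its own kleisin and HEAT-repeat subunits and is nuclear throughout the cycle. Of its 3 specific genes, 2 rose, 0 fell and 1 did not pass, against 2.00% of all tested genes called higher and 0.773% called lower. Ncapg2 was at 74.9, 77.9 and 57.1 without and 121.9, 148.3 and 140.2 with irradiation, well apart, with a log2 change of 0.83 (SE 0.14; adjusted p = 0.0069 by limma). Ncapd3 was at 349, 334.6 and 316.4 without and 464.6, 587.2 and 493.8 with irradiation, a log2 change of 0.60 (SE 0.10; adjusted p = 0.0072 by limma). Its call ended without irradiated replicate 2, its highest array (0.50; limma adjusted p = 0.0514), and without the intensity trend (0.0644).

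Ncaph2, the kleisin of condensin II, was at 571.1, 576.7 and 632.3 without and 684.1, 701.3 and 704.4 with irradiation. Its groups did not overlap, and the change of 0.23 (0.05 to 0.40; limma adjusted p = 0.216) did not pass. A second probe set gave 0.30 (limma adjusted p = 0.182). The kleisins of both condensins thus had values of 0.76 and 0.23, with 95% intervals that did not overlap; the difference itself was not tested. The CHR letters were in 0 of the 3 promoters of this complex.

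The proteins that load cohesin or release it from chromosomes, like the ring itself, gave no call. Of 9 such genes 8 were measured and 7 tested. Of these 0 rose, 0 fell, and 2 had an unadjusted p under 0.05 by limma, as did 15.7% of all tested genes. Their median log2 change was 0.15. The loader gene Nipbl had a change of 0.13 (-0.10 to 0.36), the release factor gene Wapl 0.16 (-0.05 to 0.37), and the genes of the scaffold proteins Pds5a and Pds5b 0.07 (-0.11 to 0.24) and 0.11 (-0.19 to 0.41). Groups overlapped for all 4 at these probe sets. The Pds5b change was -0.0014 without irradiated replicate 2. Dimmer Pds5b probe sets had changes of 0.26 and 0.30 without overlap and did not pass (limma adjusted p = 0.467 and 0.476). For Nipbl, dimmer probe sets had changes of -0.14 to 0.08, for Wapl -0.12 and 0.34, and for Pds5a 0.12, all with overlap.

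The 2 genes of this list with an unadjusted p under 0.05 act in S and G2 to make cohesion stable. Esco2, an acetyltransferase that modifies Smc3 during replication, was at 57.8, 70.2 and 62.1 without and 88.2, 109.3 and 145.6 with irradiation. Its groups did not overlap, and its log2 change of 0.70 (0.34 to 1.05) just missed the threshold (limma adjusted p = 0.0515; 0.0296 to 0.175 over other settings). It passed in 5 of the 18 other settings: with a floor of 10 (limma adjusted p = 0.0468), a filter at the 60th percentile (0.0424), robust eBayes (0.0450) and probe sets averaged (0.0322), and without irradiated replicate 1, its lowest irradiated array (0.0296). Cdca5, which encodes sororin, a protein that opposes Wapl, was at 16.9, 17.2 and 9.1 without and 29.4, 22.8 and 32.2 with irradiation. Its change was 0.54 (limma adjusted p = 0.207), and it passed the filter only through its irradiated values.

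The genes that guard cohesin at the centromere or cut it at anaphase rose. Of 5 such genes 4 were tested, and all 4 rose, against 2.00% of all tested genes called higher. The separase gene Espl1, whose protease opens the cohesin ring, was at 284.4, 286.5 and 294.5 without and 550.5, 649.4 and 600.3 with irradiation. The unirradiated arrays were close together, and the mean rose 2.08-fold, a log2 change of 1.01 (SE 0.09; adjusted p = 1.3e-04 by limma). Its inhibitor securin, encoded by Pttg1, rose from 1335 ± 56.9 to 1991 ± 104 (SD, n = 3), a log2 change of 0.57.

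Sgo1, the shugoshin that protects centromeric cohesin from removal, rose 2.01-fold from 347 ± 35.5 to 699 ± 61.1 (SD, n = 3), a log2 change of 0.98 (limma adjusted p = 2.3e-04). The gene of the histone kinase Haspin, which acts at the same place, was at 115, 132.6 and 135.8 without and 266.3, 270 and 192.9 with irradiation, a log2 change of 0.84 (limma adjusted p = 0.0054). All 4 kept their calls in every setting tried. Sgo2 was under the filter, at 2.5, 11.8 and 2.5 without and 20.6, 25.3 and 21.8 with irradiation, and was not tested.

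**Figure D4:**
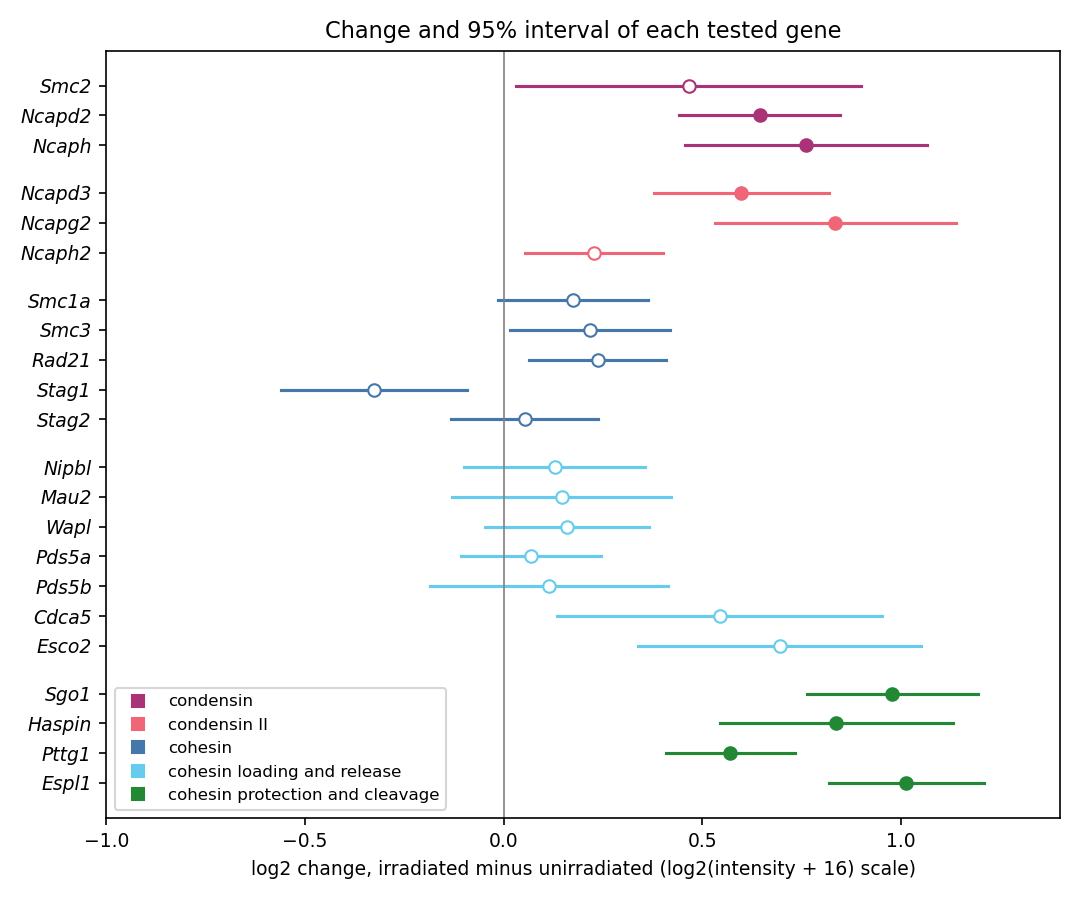
Log2 change (irradiated minus unirradiated, points) and limma 95% confidence interval (lines) of each tested gene, by role; filled points passed at an adjusted p under 0.05. The 4 genes of cohesin protection and cleavage lie at 0.57 to 1.01, and the 5 cohesin genes at -0.33 to 0.24.

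Other genes of mitotic chromosomes were looked at beside condensin. Top2a, the topoisomerase that untangles sister DNA and works with condensin in compaction, was at 600.6, 620.1 and 622.1 without and 984.9, 983.7 and 1059.6 with irradiation, a log2 change of 0.70 (SE 0.08; adjusted p = 3.7e-04 by limma). Its second probe set had a change of 1.04 and also passed. Mki67, which coats mitotic chromosomes, rose by 0.64, but lost its call in 4 of the fits that left out 1 array: those without unirradiated replicate 2, unirradiated replicate 3, irradiated replicate 1 and irradiated replicate 3 (limma adjusted p up to 0.0693). It also lost it without the intensity filter (limma adjusted p = 0.0763) and without the intensity trend (0.111). Top2b, the paralog not tied to the cell cycle, had a change of 0.13 (-0.13 to 0.39), and Ctcf, the DNA-binding protein that stops cohesin loops, of -0.09 (-0.36 to 0.18; 0.01 without irradiated replicate 1).

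Genes of G2 and mitosis moved in the same arrays as condensin. Of 10 reference genes of that phase 9 rose (7 without irradiated replicate 2 and 8 without irradiated replicate 3). Over all tested genes, 2.00% were called higher. The median log2 change of the 10 was 0.71, and their summed intensity was 5176 to 5732.6 without and 8814.4 to 9297.1 with irradiation. Cyclin B1 (Ccnb1) had a change of 0.73. Of 9 tested replication genes 4 rose (2 without unirradiated replicate 3, irradiated replicate 1 or irradiated replicate 2), with a median of 0.52, and Mcm7, of the replicative helicase, had a change of 0.62. The part of these shifts in the condensin result was not tested, and in bulk RNA a larger share of cells in a phase and more mRNA per cell cannot be told apart.

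The genes most like the condensin mean over the 6 arrays were ranked by the root-mean-square difference of centred log2 values, which had a median of 0.30 over 10346 other genes. The nearest were Dock11 (0.026), the securin gene Pttg1 (0.040), Wwox (0.044), the kinetochore gene Cenpt (0.049) and Bcl2l12 (0.049). Their log2 changes were 0.56, 0.57, 0.60, 0.52 and 0.59. For both complexes, changes near that of the complex mean follow from the ranking, which used the same 6 arrays. The changes and calls of the nearest genes are therefore no separate result. Dock11 did not pass (limma adjusted p = 0.0816), except without the intensity trend (0.0400) and with probe sets averaged (0.0221). With probe sets averaged, Wwox and Cenpt were at 0.24 and 0.34 and did not pass. Wwox also lost its call without unirradiated replicate 1, unirradiated replicate 2, irradiated replicate 1 or irradiated replicate 2, where its adjusted p by limma reached 0.0945, and without the intensity filter (0.0519). Nearest to the cohesin mean, by a median of 0.15, were the splicing gene Isy1 (0.017), Cd82 (0.020), Paxip1 (0.024), Klc2 (0.024) and Trim37 (0.026), whose log2 changes were 0.04 to 0.06 with 0 called. The change of Isy1 was -0.12 with its probe sets averaged.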

How the data were processed

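The authors deposited linear probe set intensities for 6 arrays, 1 per sample. The submitters' design text names BRB ArrayTools 3.3.0 as the processing software; how probes were summarised and scaled is not given in the sources used here. Arrays had a common trimmed mean (150.04 to 150.05, with 2% of probe sets trimmed at each end), so the table was kept as deposited. Of 31099 probe sets, 57 controls and those under the 40th percentile of mean intensity were left out, and 18632 were tested as log2(intensity + 16). Limma 3.58.1 in R 4.3.3 (lmFit, eBayes with intensity trend) compared irradiated with unirradiated arrays, two-sided, with no covariate and Benjamini-Hochberg adjustment over all tested probe sets at 0.05. Precision is limited by the number of arrays, with a median SE of 0.14 for log2 changes. The fit was also tested on simulated data.

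Symbols came from the platform annotation; 0 differed from RefSeq by Entrez ID. Of the gene names looked up, 10 had no probe set with that symbol alone (Ncapg, Esco1, Rec8, Rad21l1, Kif4a, Mcph1, Ddx11, Gins2, Cdh5 and Cd207). Named genes were the members, related genes that were called or listed beforehand by role, and the 5 nearest to each complex mean. The members and lists were chosen with earlier results of these data known. No coordinates other than those of the promoter table were used, and those do not bear on the array values.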

Additional observations from a re-analysis of the deposited data

How the results depend on the processing

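The condensin count was 2 in the chosen setting, 1 without the intensity filter, 1 without the intensity trend, and 1 to 2 when each array was left out, where fewer arrays give less power; Ncapd2 was called each time. It was 2 in the other 10 settings. The cohesin count was 0 in all 18 settings, in either direction. The difference in mean change between the complexes, 0.47, was 0.61 with a pseudocount of 1, 0.34 with 64 and 0.59 with a floor of 10. These settings act on dim probe sets such as those of Smc2 and Smc4. It was 0.55 over tested condensin genes only, 0.44 to 0.52 when each array was left out, and within the spread between replicates in the other settings. Among the genes named with a log2 change and refitted in every setting, the signs of 5 small changes turned: Stag2 (-0.0019 without unirradiated replicate 3; up to 0.089 without another array), Pds5b (-0.0014 without irradiated replicate 2; up to 0.24), Ctcf (0.013 without irradiated replicate 1; down to -0.20), Nsmce3 (0.081 without unirradiated replicate 2, 0.0058 without irradiated replicate 2, down to -0.13 without another array; 0.11 with its probe sets averaged) and Isy1 (-0.12, with its probe sets averaged). No paired analysis was possible because the labels give the groups no shared replicate numbers; the numbers used here follow the order of deposit, name arrays and pair none. Of the 10 reference genes of G2 and mitosis 5 rose without the intensity trend, of 9 replication genes 2, of 12 keratinocyte markers 0 fell, and 1 of 3 condensin II genes rose. Without the intensity filter 7 of the G2 and mitosis genes and 2 replication genes rose, and 1 keratinocyte marker fell. Of the genes that load or release cohesin 1, Esco2, rose in 5 settings. Dim signal limits what can be said of Smc2, Smc4, Cdca5 and Sgo2.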

Other observations

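The Smc5-Smc6 complex, the third SMC complex of the nucleus, acts in DNA repair and in resolving joined chromosomes. All 6 of its genes that were looked up were tested, and 0 passed limma, also at an unadjusted p under 0.05 (0 of 6, against 15.7% of all tested genes). Their median log2 change was 0.13, with Smc5 at 0.30 (95% confidence interval -0.03 to 0.62) and Nsmce3 at -0.03 (-0.37 to 0.31). The sign for Nsmce3 is not settled: its second probe set had a change of 0.26, and the first one of 0.08 without unirradiated replicate 2. Irradiated replicate 3 held the highest value of Smc5 (173.3, against 99.4 to 117 on the other arrays) and of Smc6 (348.7, against 232.1 to 288.8). The meiotic cohesin genes Smc1b and Stag3 had mean intensities of 4.90 and 2.22 over the 6 arrays, under the filter. These genes were chosen for mention after their values were seen.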
